A study of Homo sapiens with 9 samples.

Results

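The 10 genes described here are VIM and the mesenchymal and epithelial marker genes usually read beside it: CDH2 and FN1 with VIM on the mesenchymal side, the transcription factors ZEB1, ZEB2, TWIST1 and SNAI2, and CDH1, EPCAM and KRT18 on the epithelial side. They were picked by gene symbol, not by their values, and all 10 were found among the 78986 genes of the count table. RNA-seq was performed on 9 libraries of stable lines made in HEK293T, a transformed human embryonic kidney line, with 3 replicates each of cells expressing WT p53, p53 G245S or p53 R273H. All 3 groups received their p53 construct by lentivirus and were selected and kept in 1.5 µg/mL puromycin, so the WT group is also a p53 overexpression line and untransduced cells were not part of the comparison. The labels name the line HEK 293 and its cell type epithelial cell, while the culture description names HEK293T. HEK293T carries the SV40 large T antigen, which holds endogenous p53 inactive, and the endogenous gene remains in every group. The lines are described as selected after transduction and no isolation of clones is mentioned. The 3 libraries of a group are called biological replicates, and how many separate cultures or transductions they represent is not stated in the sources used here, so p-values measure the spread between these libraries.

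In epithelial-mesenchymal transition, cells lose the junctions that hold an epithelial sheet together and take on the cytoskeleton and matrix of a mesenchymal cell. The ZEB, SNAI and TWIST factors sit at the centre of this programme. ZEB and SNAI proteins bind a short DNA element, the E-box, in the promoters of epithelial genes such as CDH1 and repress them, while VIM, CDH2 and FN1 accumulate in cells that have passed through the transition. HEK293 cells are known for a mixed character, with vimentin and N-cadherin beside simple keratins.

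The E-box that ZEB and SNAI factors bind, read as CACCTG on one strand or CAGGTG on the other, was searched for on both strands in the RefSeq windows of 300 bases around gene starts (250 before and 50 after, GRCh38.p14). Windows were at hand for VIM, CDH2, ZEB1, ZEB2 and FN1, 12 in all, and most of them belonged to ZEB1. Only ZEB1 windows held the element: 1 window had 3 copies and another had 1. With more windows searched there than at the other genes, this does not set ZEB1 apart from them. Of all 35116 windows, 20.6% held at least 1 copy and 0.635% held 3 or more. The ZEB1 sites are shown on the plus strand, with the E-box in capitals. They were the only copies found in the windows of the 5 genes, and ZEB1's own protein family reads this element. The first site comes from the window with a single copy and the others from the window with 3.
ZEB1 site at chr10:31318348-31318377: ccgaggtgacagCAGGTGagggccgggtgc
ZEB1 site at chr10:31318966-31318991: ccccaccaCACCTGaggaaaactttt
ZEB1 site at chr10:31319119-31319148: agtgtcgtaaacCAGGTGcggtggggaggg
ZEB1 site at chr10:31319237-31319265: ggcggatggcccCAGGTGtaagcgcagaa
These letters describe the window and no binding was measured.

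Library totals ran from 7325514 to 9667306 counts in 8 libraries and stood at 1486315 in WT replicate 3. The fits omit it by a rule on depth, a total below 0.5 times the median total of its peers, and it also stood apart in content. In it, 58 genes reached at least 5 CPM (counts scaled by TMM to a common library size and given per 1e6) while staying at or under 1 CPM in every other fitted library, and no gene did so in any of the other 8 libraries. Among these genes, named after their values were seen, KLK2 stood at 44.7 CPM, SERPIND1 at 34.9 CPM and TFF1 at 27.2 CPM. CTSG stood at 18.1 CPM and KLK3 at 17.4 CPM, and each of these genes was at most 0.344 CPM elsewhere. KRT19, a keratin of simple epithelia, was at 33.5 CPM there against 0.257 to 1.36 CPM in the others. Several genes of the panel were high in the same library, as given below, and where a result depends on whether it enters the fit, both values are stated.

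Measured per kilobase of the gene's listed features, the WT cells expressed VIM far above the other members. These lengths cover all features of a gene, 26.2 kb for ZEB2 and 17.2 kb for FN1, and the order below VIM depends on them. In CPM without length, VIM was again first at 565. There CDH2 (80.2) was above KRT18 (62.8), ZEB1 (28.9) above TWIST1 (16.0) and ZEB2 (15.3) above FN1 (12.7). VIM, the type III intermediate filament of mesenchymal cells, averaged 109 ± 4.08 CPM per kb (SD, n = 2), and KRT18, a keratin of simple epithelia, 20.5 ± 0.792 CPM per kb. CDH2 followed at 9.35 ± 0.572 and SNAI2 at 9.12 ± 0.823 CPM per kb, values that overlapped within 1 SD. TWIST1 was at 8.01 ± 0.186 and ZEB1 at 3.34 ± 0.124 CPM per kb. FN1 was at 0.737 ± 0.0725, ZEB2 at 0.585 ± 0.0588 and EPCAM at 0.481 ± 0.213 CPM per kb, the last pair again overlapping. CDH1 was lowest at 0.220 ± 0.0172 CPM per kb. The epithelial label was therefore only partly matched by CDH1, EPCAM, KRT8, KRT18 and KRT19 in the 8 fitted libraries. KRT18 (58.6 to 68.6 CPM) and its partner KRT8 (9.62 to 12.1 CPM) were present. CDH1 was seen in 5 to 11 counts, EPCAM in 6 to 25 and KRT19 in 2 to 10 counts per library. Of 29 listed epithelial junction and keratin genes, 16 averaged at least 1 CPM over these libraries. The junction genes DSG2, DSP and TJP1 averaged 124, 99.7 and 52.0 CPM in WT. A floor of 3 counts is the smallest level read as above 0, for counting error only.

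**Figure D1:**
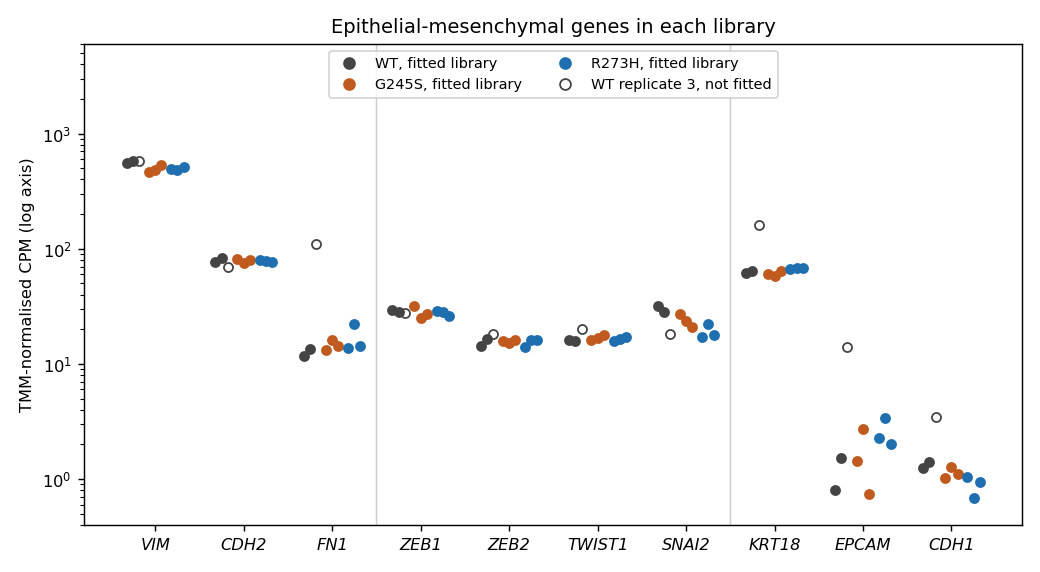
Each point is 1 library and its height is the TMM-normalised CPM of the gene on a log axis, grouped as mesenchymal genes, transcription factors and epithelial genes. The 8 fitted libraries of a gene lie close together for VIM, CDH2, ZEB1, ZEB2, TWIST1 and KRT18. WT replicate 3 (open circle) lies far above them for FN1, KRT18 and EPCAM. For CDH1 it lies higher too, but from 5 counts, and its exact Poisson 95% interval (1.13 to 8.14 CPM) covers both fitted WT values.

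The question put to these genes was whether cells with either p53 mutant differ from cells with WT p53. With edgeR's quasi-likelihood test and an adjusted p of 0.05 over all genes tested, 0 of the 10 members passed in G245S against WT, where 0.126% of 15893 genes passed. In R273H against WT, 0 of 10 passed against 0.137% of 16022 genes. In R273H against G245S, 0 of the 9 members that passed the filter on low counts were past the threshold, against 0.0% of 15614 genes, and CDH1 was not tested. At an unadjusted p under 0.05 the counts were 1 (SNAI2; 6.66% of all genes), 2 (EPCAM and SNAI2; 6.11%) and 1 (SNAI2; 4.75%). DESeq2 also called 0 members in each comparison. The median log2 fold change of the members was -0.022 in G245S and -0.012 in R273H against WT, beside 0.0034 and 0.0023 over all genes tested. Both mutants were compared with the same WT libraries, so their agreement is not independent.

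**Figure D2:**
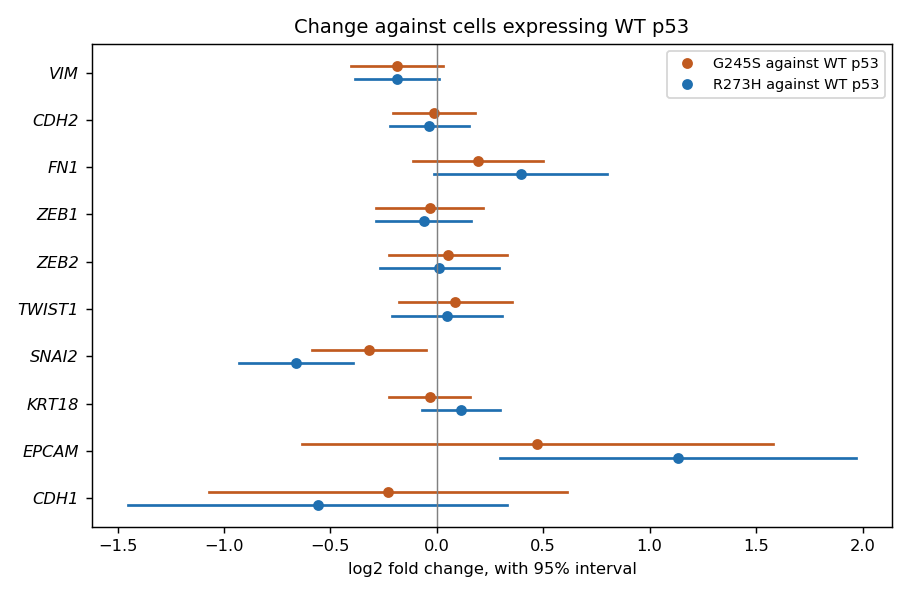
Points are log2 fold changes from edgeR against the 2 fitted WT libraries and bars their 95% intervals, for each gene and mutant. Intervals of both mutants exclude 0 for SNAI2 and that of R273H does for EPCAM, before any adjustment over genes; none of the 10 genes passed after adjustment.

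VIM lies on chromosome 10 (GRCh38, 17228241 to 17237593, plus strand). It was measured at 550.0 and 580 CPM in the fitted WT libraries. The G245S libraries stood at 461, 484 and 535 CPM and the R273H libraries at 489, 481 and 516 CPM. Every mutant library was below both WT libraries, and WT replicate 3, at 576 CPM, was also above all 6. WT replicate 3 is not in the fits and stood apart in content. Its exact Poisson 95% interval (537 to 617 CPM) overlapped that of G245S replicate 3 (520 to 552 CPM). The log2 fold change was -0.19 in G245S (SE 0.0999, 95% interval -0.40 to 0.027, adjusted p = 0.784) and -0.19 in R273H (SE 0.0929, 95% interval -0.39 to 0.011, adjusted p = 0.850), 0.878 times the WT level in each, which did not pass the test. With all 3 WT libraries the values were -0.20 in both. Lying wholly below WT was shared by 10.8% of all genes in G245S and 10.5% in R273H, and within the panel by VIM and SNAI2 in both mutants and by CDH1 in R273H. The share of all genes below WT in both mutants at once was not counted, and both mutants share the same WT libraries. Between the mutants VIM differed by -0.0014 (95% interval -0.18 to 0.17). Its antisense neighbour VIM-AS1, looked at after its values were seen, ran from 4.12 to 17.1 CPM in the fitted WT libraries, from 6.40 to 9.63 CPM in G245S and from 8.17 to 26.5 CPM in R273H. R273H minus G245S was 1.34 for VIM-AS1 (SE 0.318, adjusted p = 0.921). Counting was strand-specific, so the reads of VIM and VIM-AS1 were assigned separately.

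CDH2 encodes N-cadherin, the adhesion molecule that takes the place of E-cadherin in mesenchymal cells (GRCh38, chromosome 18, 27932879 to 28177946, minus strand). Its levels were 76.7 and 83.7 CPM in WT, 81.7, 75.5 and 80.0 CPM in G245S and 79.9, 78.1 and 76.3 CPM in R273H. All groups overlapped, and the highest of the 8 libraries was 1.11 times the lowest, the narrowest range in the panel. The 95% interval of its log2 fold change was -0.20 to 0.18 in G245S and -0.22 to 0.15 in R273H.

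FN1 encodes fibronectin, a glycoprotein of the extracellular matrix (GRCh38, chromosome 2, 215360440 to 215436073, minus strand). It was at 11.8 and 13.6 CPM in the fitted WT libraries, at 13.1, 16.1 and 14.2 CPM in G245S and at 13.8, 22.3 and 14.2 CPM in R273H. R273H replicate 2 stood above all other fitted libraries. The log2 fold change in R273H was 0.39 (SE 0.190, adjusted p = 0.835), with every R273H library above both WT libraries, as for 10.2% of all genes. Without R273H replicate 2 it was 0.15. WT replicate 3 held 111 CPM, 7.93 times the median of the 8, and with this library in the fit the values turned to -0.95 in G245S and -0.72 in R273H. The direction of FN1 thus rests on which WT libraries are used.

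Among the factors, ZEB1 (GRCh38, chromosome 10, 31318495 to 31529814, plus strand), the gene whose E-boxes are printed above, ran from 28.2 to 29.7 CPM in WT, from 25.0 to 31.7 CPM in G245S and from 25.9 to 28.8 CPM in R273H. ZEB2, its paralogue (GRCh38, chromosome 2, 144364364 to 144521057, minus strand), ran from 14.2 to 16.4, from 15.3 to 16.2 and from 14.1 to 16.1 CPM in the same order. TWIST1, a basic helix-loop-helix factor (GRCh38, chromosome 7, 19020991 to 19117636, minus strand), ran from 15.7 to 16.3, from 16.2 to 17.9 and from 15.8 to 17.3 CPM. Groups overlapped for all 3 genes. Their log2 fold changes lay between -0.062 and 0.088 against WT in the 2 mutants. The 95% intervals reached no further than -0.29 on the lower side and 0.35 on the upper.

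SNAI2 encodes the zinc-finger repressor Slug and was the member nearest to the threshold. It stood at 31.8 and 28.0 CPM in the fitted WT libraries (278 and 219 counts). The G245S libraries had 27.1, 23.5 and 20.8 CPM, and the R273H libraries 17.1, 22.1 and 17.9 CPM. Both mutants lay wholly below the fitted WT libraries, while R273H and G245S overlapped. The log2 fold change was -0.32 in G245S (SE 0.125, adjusted p = 0.684) and -0.66 in R273H (SE 0.125, 95% interval -0.93 to -0.39, adjusted p = 0.0677), or 0.632 times the WT level in R273H. Between the mutants, R273H minus G245S was -0.35 (SE 0.127, adjusted p = 0.982). The fold change in R273H stayed between -0.77 and -0.56 under all 13 alternatives, while its adjusted p depended on single libraries. Without R273H replicate 2 it was -0.77 and passed (adjusted p = 0.0197), and without WT replicate 1 it was -0.56 (adjusted p = 0.386). WT replicate 3, with 26 counts, was at 18.1 CPM (exact Poisson 95% interval 11.9 to 26.6), inside the range of the mutants, and with it in the fit the fold change was -0.58 and the adjusted p 0.493. Over the 13 alternatives the adjusted p ran from 0.000114 to 0.493.

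**Figure D3:**
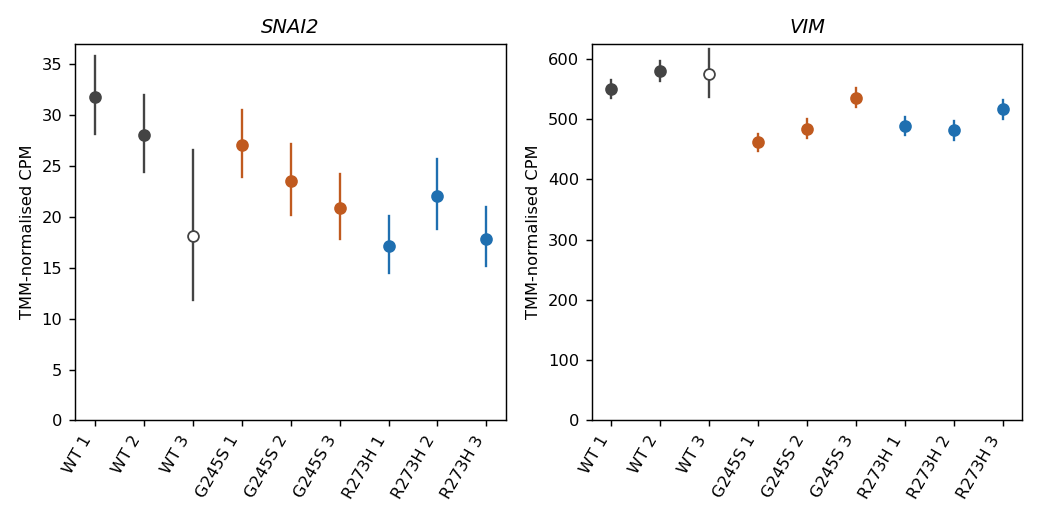
Points are the TMM-normalised CPM of SNAI2 and VIM in each of the 9 libraries, with exact Poisson 95% intervals that cover counting error only; the open circle is WT replicate 3. SNAI2 lies below the fitted WT libraries in all 6 mutant libraries but WT replicate 3 does not stand above them, whereas for VIM all 3 WT libraries do. The VIM intervals of WT replicate 3 and G245S replicate 3 overlap.

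On the epithelial side, CDH1 encodes E-cadherin, the junction protein whose loss defines the transition (GRCh38, chromosome 16, 68737292 to 68835537, plus strand). It was barely detected, at 1.26 and 1.41 CPM in the fitted WT libraries, 1.02, 1.28 and 1.10 CPM in G245S and 1.03, 0.681 and 0.947 CPM in R273H. R273H lay wholly below WT, but its highest library had 9 counts and both WT libraries 11. The log2 fold change of -0.56 had a 95% interval from -1.45 to 0.33, which includes 0. WT replicate 3 was at 3.49 CPM from 5 counts.

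EPCAM, an epithelial adhesion molecule (GRCh38, chromosome 2, 47345158 to 47387601, plus strand), had 0.802 and 1.54 CPM in WT (7 and 12 counts). It had 1.42, 2.70 and 0.736 CPM in G245S and 2.30, 3.40 and 2.01 CPM in R273H. R273H lay wholly above the fitted WT libraries and overlapped G245S. The log2 fold change in R273H was 1.13 (SE 0.392, 95% interval 0.30 to 1.97, adjusted p = 0.675), and it was 0.72 without WT replicate 1, 1.64 without WT replicate 2 and 0.90 without R273H replicate 2, its highest library. WT replicate 3 held 14.0 CPM from 20 counts, and with it in the fit the value was 0.0098.

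KRT18 (GRCh38, chromosome 12, 52948871 to 52952906, plus strand) was at 61.1 and 64.5 CPM in WT, 60.7, 58.6 and 63.8 CPM in G245S and 66.9, 67.8 and 68.6 CPM in R273H. The R273H libraries were above all fitted libraries of both other groups. The difference was small: 0.11 against WT (SE 0.0855, adjusted p = 0.953) and 0.14 against G245S (SE 0.0738, adjusted p = 0.994), the latter without overlap as for 4.63% of all genes. In WT replicate 3 the level was 160 CPM, and adding this library turned R273H against WT to -0.30. The table also lists 69 KRT18 pseudogenes, of which 24 had a count. Their summed counts came to between 3.91% and 6.63% of those of KRT18 in a library, and since multi-mapping reads were shared fractionally, the split between them and KRT18 is uncertain.

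Ratios of 2 genes within a library do not depend on its scaling. The log2 ratio of VIM to KRT18 was 3.17 ± 0.0020 (SD, n = 2) in WT, 3.01 ± 0.0775 (n = 3) in G245S and 2.87 ± 0.0425 (n = 3) in R273H. Each R273H library was below each G245S library and each G245S library below both fitted WT libraries, whereas WT replicate 3 lay below all of them at 1.85. How many other gene pairs are ordered in this way was not counted. The cadherin ratio, CDH2 to CDH1, was 5.85 ± 0.0246 in WT, 6.06 ± 0.230 in G245S and 6.38 ± 0.282 in R273H, and rests on the few counts of CDH1. The ZEB1 to ZEB2 ratio overlapped in all groups, with means of 0.92 ± 0.198, 0.82 ± 0.162 and 0.85 ± 0.167. These ratios were not tested, since the smallest two-sided p of an exact permutation test is 0.2 for 2 against 3 libraries and 0.1 for 3 against 3.

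In lists of related genes, which exclude the members, mesenchymal structure and matrix genes were the only list with a gene past the threshold. Of 26 listed, 23 were tested in G245S against WT, with a median log2 fold change of -0.26, and 24 in R273H against WT, with a median of 0.25. With all 3 WT libraries the medians were -0.49 and 0.016. The R273H median was 0.042 without WT replicate 1, 0.47 without WT replicate 2 and 0.13 without R273H replicate 2. In each mutant 1 gene passed the threshold, in both ACTA2, smooth muscle actin of the contractile apparatus. ACTA2 fell from 22.0 and 24.6 CPM in WT to between 3.76 and 7.70 CPM in G245S (log2 fold change -2.11, adjusted p = 0.000268) and to between 6.43 and 10.3 CPM in R273H (-1.56, adjusted p = 0.000428). In R273H against G245S the median of the list was 0.55, with 0 of 23 past the adjusted threshold and 15 at an unadjusted p under 0.05 (4.75% of all genes tested), all of them higher in R273H. Of these, COL1A2, a chain of type I collagen, had 18.4 CPM on average in G245S and 36.2 CPM in R273H (log2 fold change 1.00, adjusted p = 0.921). Its G245S and R273H libraries overlapped.

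The list's level differed between libraries of the same group. It was taken as the median log2 deviation of the 24 list genes tested in any comparison. Among the fitted libraries it was highest in R273H replicate 2 (0.71), which also had the highest FN1 and EPCAM. That library has the smallest total of the 8, 7325514 counts. The list's level was lowest in G245S replicate 1 (-0.55), which has the largest total, 9667306 counts. WT replicate 3 stood higher still at 1.04. Without R273H replicate 2 the list's genes at an unadjusted p under 0.05 in R273H against G245S numbered 7 in place of 15, with a median of 0.42, and without G245S replicate 1 they also numbered 7, with a median of 0.45. The part of depth or of these libraries in the difference was not tested.

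**Figure D4:**
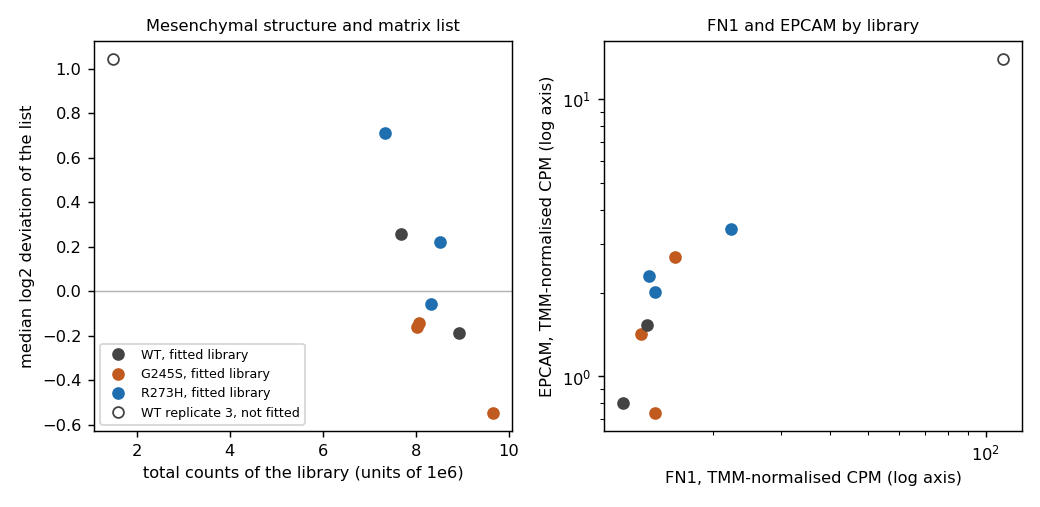
Left, the median log2 deviation of 24 mesenchymal structure and matrix genes from their mean, against the total counts of each library, in units of 1e6; right, EPCAM against FN1 in TMM-normalised CPM on log axes. R273H replicate 2 is the fitted library with the highest list level (0.71), FN1 and EPCAM, and WT replicate 3 (open circle) lies beyond it in all 3.

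In the other lists 0 genes passed the threshold in any comparison. Of 8 tested EMT transcription factors, 1 was at an unadjusted p under 0.05 in each mutant against WT, and the median log2 fold changes were 0.0065 and -0.016. SOX9, a factor of progenitor and kidney cells, had 12.8 and 12.5 CPM in WT, 9.04 to 9.50 CPM in G245S and 9.41 to 10.6 CPM in R273H, with log2 fold changes of -0.44 (adjusted p = 0.586) and -0.37 (adjusted p = 0.727), and WT replicate 3 was at 18.1 CPM. Epithelial junction and keratin genes had medians of 0.058 over 15 and 0.085 over 16 tested genes. SPINT2, an inhibitor of epithelial serine proteases, was at 39.4 and 36.1 CPM in WT and at 41.7 to 47.6 CPM in the mutants (0.22 and 0.23, adjusted p = 0.729 and 0.775), while WT replicate 3, at 61.4 CPM, was above every mutant library. Epithelial regulators, with 3 and 4 tested, had medians of 0.27 and 0.26, and catenins and cadherin partners, with 8 tested, 0.049 and 0.045. TGF-beta pathway genes, with 18 and 19 tested, had medians of 0.097 and 0.020. SKIL, a co-repressor that restrains SMAD signalling, was at 23.7 and 31.2 CPM in WT and at 34.9 to 37.0 CPM in R273H (0.39, adjusted p = 0.527), with 32.8 CPM in WT replicate 3. TGFB1, the ligand, was at 11.6 and 12.3 CPM in WT and at 13.8 to 17.3 CPM in R273H (0.39, adjusted p = 0.702), with 9.07 CPM in WT replicate 3. The other intermediate filaments, with 10 and 11 tested, had medians of -0.060 and 0.041. Fibronectin receptors and matrix adhesion genes, with 12 tested, had medians of -0.058 and -0.029.

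Fibroblast, endothelial and blood cell markers were low, and the part of any of these cell types in the results was not tested. The 5 fibroblast markers summed to 2.06 to 4.99 CPM in WT, 3.80 to 6.29 CPM in G245S and 4.26 to 10.6 CPM in R273H. The 5 endothelial markers summed to at most 1.50 CPM and the 5 blood cell markers to at most 2.18 CPM in the fitted libraries, with PECAM1 and CD3E at 0. The 10 kidney and neuronal markers summed to 291 to 316 CPM in WT, 331 to 355 CPM in G245S and 336 to 379 CPM in R273H, with the kidney genes UMOD and CDH16 at 0. Most of each sum was UCHL1, named after its values were seen. It averaged 272 CPM in WT, 310 CPM in G245S and 320 CPM in R273H. UCHL1 did not pass the edgeR threshold (adjusted p = 0.757 in G245S and 0.759 in R273H). Of the 5 markers tested, 1 was lower than WT in G245S and 0 in R273H. Not every kidney gene was at 0. PAX2, named after its values were seen, averaged 2.82 CPM in WT, 3.71 CPM in G245S and 4.25 CPM in R273H. PAX2 did not pass the edgeR threshold (adjusted p = 0.822 in G245S and 0.785 in R273H).

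Over the 8 fitted libraries and 9272 genes with a mean of at least 10 CPM, the genes whose levels followed VIM most closely were ST13, an HSP70 cochaperone (Pearson r = 0.97), HDGFL3 (0.94) and PBRM1, a subunit of a chromatin remodelling complex (0.94). The most opposed were ITGAV, an integrin chain that binds fibronectin and vitronectin (-0.97), FAM131A (-0.97) and PIAS1 (-0.96). The other members ranged from -0.56 for EPCAM to 0.58 for CDH1, with SNAI2 at 0.33. EPCAM and CDH1 averaged 1.86 and 1.09 CPM over these libraries, under the minimum of 10 CPM, so their values rest on few counts. These values are descriptions over libraries that share their genotype groups and scaling.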

How the data were processed

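The deposited table holds expected counts per gene (fractional, not normalized), made by the authors from reads filtered with fastp 0.24.0, aligned to GRCh38 with STAR 2.7.11, deduplicated by molecular identifier with UMICollapse and counted with featureCounts (Subread 2.1.1), strand-specifically, using exon and 3′ UTR features and fractions for reads that map to several places. Another 9 columns of per-sample CPM were not used. Counts were rounded to whole numbers. WT replicate 3 was left out because its total was under 4096044 counts, a rule on depth alone; the study also left out 1 WT replicate, not named. Genes were filtered with filterByExpr, scaled by TMM and tested with edgeR 4.0.16 (glmQLFTest, R 4.3.3), with Benjamini-Hochberg adjustment over all genes tested and a threshold of 0.05. Alternatives included DESeq2 1.42.0, other scalings and filters, each library left out, all 3 WT libraries and the replicate number as a block. The tests were tried on simulated data. Every member was named; of each list, at most 5 genes past the threshold and the pair with the largest mean change at 5 CPM or more were eligible, with the 3 genes most and least like VIM; others, such as COL1A2 and VIM-AS1, were added after their values were seen. Of the eligible genes, 1 is not reported here. Within-library ratios had 0.5 counts added. The members and lists were chosen with earlier results of these data known.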

Additional observations from a re-analysis of the deposited data

Results flagged for a closer look

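Several genes of the panel carried signal in WT replicate 3, which entered none of the tests, above the level of the fitted WT libraries. FN1 was at 111 CPM there, EPCAM at 14.0 CPM and KRT18 at 160 CPM, which is 7.93, 7.87 and 2.49 times the median of the 8 fitted libraries. CDH1 stood at 3.49 CPM from 5 counts. In the same library VIM, ZEB1, ZEB2, TWIST1 and CDH2 were between 0.883 and 1.24 times that median.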

How the results depend on the processing

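Of 373 member fold changes recomputed under the alternatives, 339 kept their direction and their side of the threshold, 32 changed sign and 2 passed the threshold. The 2 are SNAI2 in R273H with no filter on low counts (-0.67, adjusted p = 0.000114) and without R273H replicate 2, each making 1 member past the threshold in place of 0. The causes of the changes below were not tested. With all 3 WT libraries the G245S genes past the threshold numbered 10 in place of 20. The same setting changed the sign of FN1 (-0.95 in G245S, -0.72 in R273H), EPCAM (-0.71) and CDH2 (0.022) in G245S, and KRT18 (-0.30), TWIST1 (-0.0036) and ZEB2 (-0.026) in R273H. It moved 4 of 20 list medians by more than 1 SD between libraries of a group in that list's level: epithelial junctions and keratins (-0.046), epithelial regulators (0.0065) and TGF-beta pathway (-0.023) in R273H, and fibronectin receptors (-0.11) in G245S. Within 1 SD, the median of the EMT transcription factors in R273H went from -0.016 to 0.0064, and those of the mesenchymal list, whose libraries vary more, to -0.49 in G245S and 0.016 in R273H. With no filter, 144, 93 and 125 genes passed in G245S against WT, R273H against WT and R273H against G245S, where 20, 22 and 0 did. DESeq2 called 1 gene in the last comparison. VIM between the mutants, at -0.0014, became 0.0023 with DESeq2, 0.024 with library size only, 0.0079 with upper quartile scaling and 0.0057 in 1 fit of all 3 groups. KRT18 in R273H averaged 68.7 CPM with library size only, and the WT cadherin ratio was 5.79 with 1 count added.

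Leaving out 1 library at a time, genes past the threshold ranged from 10 to 30 in G245S against WT and from 0 to 3 in R273H against G245S, and members past it from 0 to 1 in R273H against WT. Values that changed sign ranged, in G245S against WT, from -0.14 to 0.041 (ZEB1), -0.046 to 0.15 (ZEB2), -0.068 to 0.0037 (KRT18), -0.069 to 0.048 (CDH2) and -0.049 to 0.99 (EPCAM). In R273H against WT they ranged from -0.089 to 0.11 (ZEB2) and -0.097 to 0.026 (CDH2). In R273H against G245S they ranged from -0.10 to 0.079 (ZEB1), -0.060 to 0.0035 (CDH2), -0.045 to 0.060 (VIM), -0.074 to 0.019 (ZEB2) and -0.049 to 0.33 (FN1, below 0 without R273H replicate 2). The median of the mesenchymal structure and matrix list, an alternative chosen after seeing the data, ranged from -0.58 (without WT replicate 1) to -0.032 (without WT replicate 2) in G245S against WT, from 0.042 to 0.47 in R273H against WT and from 0.42 to 0.73 in R273H against G245S. Where 1 WT library was left, it was assumed to vary like the mutant.

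Whether replicate numbers pair the libraries could not be decided. Deviations of same-numbered libraries correlated between -0.35 and 0.42 over 7 pairs, and 4 of 6 mutant libraries correlated best with their own number. With 2 fitted WT libraries, the WT deviations mirror each other, so pairs with WT say little. Between G245S and R273H, same-numbered libraries gave 0.31, 0.42 and 0.042, and different-numbered libraries -0.37 to 0.13. With the replicate number as a block, 76, 47 and 59 genes passed in the 3 comparisons, no member did, and ZEB2 in R273H against WT (-0.016) and VIM between the mutants (0.00043) changed sign. CDH1 and EPCAM had at most 25 counts in a fitted library, which limits their precision.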
